A study of Mus musculus with 16 samples.

Results

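Complement is a set of plasma and cell-surface proteins that marks cells and debris for removal and calls in leukocytes. The messenger RNAs described here encode the 3 chains of C1q (C1qa, C1qb and C1qc), the central component C3, the alternative pathway protease factor B (Cfb) and the receptors C3ar1 and C5ar1. These 7 genes were chosen by their symbols, and all 7 were found once in each of 16 libraries of HM1 tumours and of CD8 T cells sorted from them. They are 7 of 53112 symbols listed for the tumours and of 55290 listed for the CD8 samples.

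C1q starts the classical pathway. It is built from its 3 chains, binds antibody complexes and dying cells, and carries the proteases C1r and C1s. C1r activates C1s, which cuts C4 and C2. All pathways meet at C3, and factor B joins C3b in the convertase of the alternative loop. Cutting of C3 and C5 releases C3a and C5a, the anaphylatoxins, which act through the receptors encoded by C3ar1 and C5ar1. Macrophages are a main source of C1q in tissues, including tumours, whereas liver, epithelial cells and myeloid cells all make C3 and factor B. The 2 receptors are typical of myeloid cells.

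The study compared HM1 tumours, a mouse model of ovarian cancer, with and without supplementation of the simple sugar mannose. There were 5 libraries per group of whole tumour tissue and 3 per group of sorted CD8 T cells. The labels do not give mouse strain, age, mannose dose, time, the sort gate or the animals behind the replicates, nor whether any group received the PD-1 antibody named in the title. The p-values therefore measure the spread between these samples, which may be technical. Values are TPM, a transcript abundance scaled for transcript length and to a common total per library, and errors are standard deviations (SD) between libraries.

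Several features of the libraries bear on what follows. In the 3 files of CD8 controls the column of values carries a mannose heading, so each direction in CD8 rests on the sample labels. TPM hold no read depth, and 12345 to 14384 symbols were at 1 TPM or more. Tumour control 1 was the least like the other tumours (mean r = 0.947), followed by mannose 3 (0.960). CD8 control 1 and control 2 used T cell receptor beta V segments almost alike (r = 0.999 across 35 segment genes), as did mannose 1 and mannose 2 (r = 0.995), against 0.267 to 0.763 for the other pairs. All 8 T cell markers were present in the CD8 libraries, with Cd8a at 582 ± 11.4 TPM in control and 409 ± 142 TPM in mannose samples (n = 3 each). All 12 macrophage markers also reached 1 TPM in each CD8 library, and their summed level ran from 3580 to 3701 TPM in control and from 1254 to 1615 TPM in mannose samples. The 8 carcinoma markers summed to between 239 and 536 TPM in control and between 1634 and 2504 TPM in mannose CD8 samples, with Muc16 at 0 in all libraries and the keratin gene Krt8 at 172 ± 70.8 and 876 ± 190 TPM.

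C1q transcripts were the most abundant of the 7 genes in both tissues. C1qa measured 342, 360, 592, 341 and 414 TPM in control tumours 1 to 5 and 536, 470, 896, 377 and 441 TPM in mannose tumours 1 to 5. C1qb ran from 209 to 420 TPM in control and from 242 to 652 TPM in mannose tumours, and C1qc from 190 to 382 and from 218 to 591 TPM. For each of the 3 chains the groups overlapped, and of the mannose tumours only mannose 3 lay above every control tumour. Tumour groups without overlap were found for 1.63% of all genes tested and for 0 of the 7 complement genes. In the CD8 samples C1qa measured 630, 593 and 506 TPM in controls and 192, 151 and 159 TPM with mannose. C1qb measured 460, 445 and 369 TPM in controls and 125, 101 and 124 TPM with mannose. C1qc measured 337, 353 and 322 TPM in controls and 113, 88.5 and 100.2 TPM with mannose. The CD8 groups did not overlap for any chain, and every mannose CD8 sample also lay below every tumour. The CD8 controls overlapped both tumour groups. The tumour and CD8 tables list different numbers of genes, so levels were not tested between the tissues.

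The 3 chains kept similar proportions within the tumours, where C1qc stood at 0.901 to 0.946 of C1qb. In CD8 controls C1qc was lower, at 0.734 to 0.872 of C1qb, a difference between tissues that was not tested. The ratio of C1qa to C1qb was 1.47 ± 0.0975 in control tumours, 1.45 ± 0.0693 in mannose tumours, 1.36 ± 0.0227 in control CD8 samples and 1.44 ± 0.136 in mannose CD8 samples. The ratio of C1qc to C1qb was 0.924 ± 0.0171 and 0.921 ± 0.0178 in the tumour groups and 0.799 ± 0.0692 and 0.863 ± 0.0508 in the CD8 groups. Such ratios do not depend on how a library is scaled. In the RefSeq annotation of GRCm38.p6 the 3 genes stand side by side on chromosome 4.

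C3 and factor B were less abundant and varied more between tumours. C3 measured 9.95, 28.5, 43.3, 28.8 and 58.9 TPM in control tumours and 40.2, 36.2, 100.8, 27.8 and 17.9 TPM in mannose tumours. Cfb measured 4.90, 32.8, 24.7, 17.2 and 50.8 TPM in control and 31.8, 12.2, 115, 12.9 and 10.6 TPM in mannose tumours. Control 1 was lowest and mannose 3 highest for both genes, with a 10.1-fold span for C3 and a 23.6-fold span for Cfb over the 10 tumours, against 2.63-fold for C1qa. In CD8 controls C3 measured 78.9, 61.6 and 74.0 TPM, and in mannose CD8 samples 32.2, 23.9 and 20.3 TPM. Cfb measured 49.4, 53.0 and 61.2 TPM in controls and 22.1, 19.9 and 31.5 TPM with mannose. The CD8 groups did not overlap for either gene, while each overlapped with a tumour group.

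The anaphylatoxin receptors were the genes with the highest CD8 control levels relative to the tumours. C3ar1 measured 2.97, 8.35, 9.65, 7.24 and 9.31 TPM in control and 12.3, 8.48, 18.8, 7.01 and 8.05 TPM in mannose tumours. C5ar1 measured 10.8, 21.4, 32.4, 26.6 and 26.3 TPM in control and 31.3, 29.7, 48.0, 23.4 and 29.5 TPM in mannose tumours. Tumour groups overlapped for both receptors, with 2 mannose tumours above every control for C3ar1 and 1 for C5ar1. In CD8 samples C3ar1 measured 36.2, 32.4 and 37.0 TPM in controls and 6.85, 5.65 and 7.01 TPM with mannose. C5ar1 measured 100.7, 79.1 and 81.7 TPM in controls and 15.5, 19.5 and 18.2 TPM with mannose. All CD8 controls lay above all tumours for both receptors, 3.22-fold (C3ar1) and 2.69-fold (C5ar1) above the mean of the mannose tumours. The mannose CD8 samples lay within the tumour range. C3ar1 stood at 0.318 ± 0.0519 of C5ar1 in control tumours, 0.329 ± 0.0593 in mannose tumours, 0.407 ± 0.0470 in control CD8 samples and 0.372 ± 0.0767 in mannose CD8 samples.

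**Figure D1:**
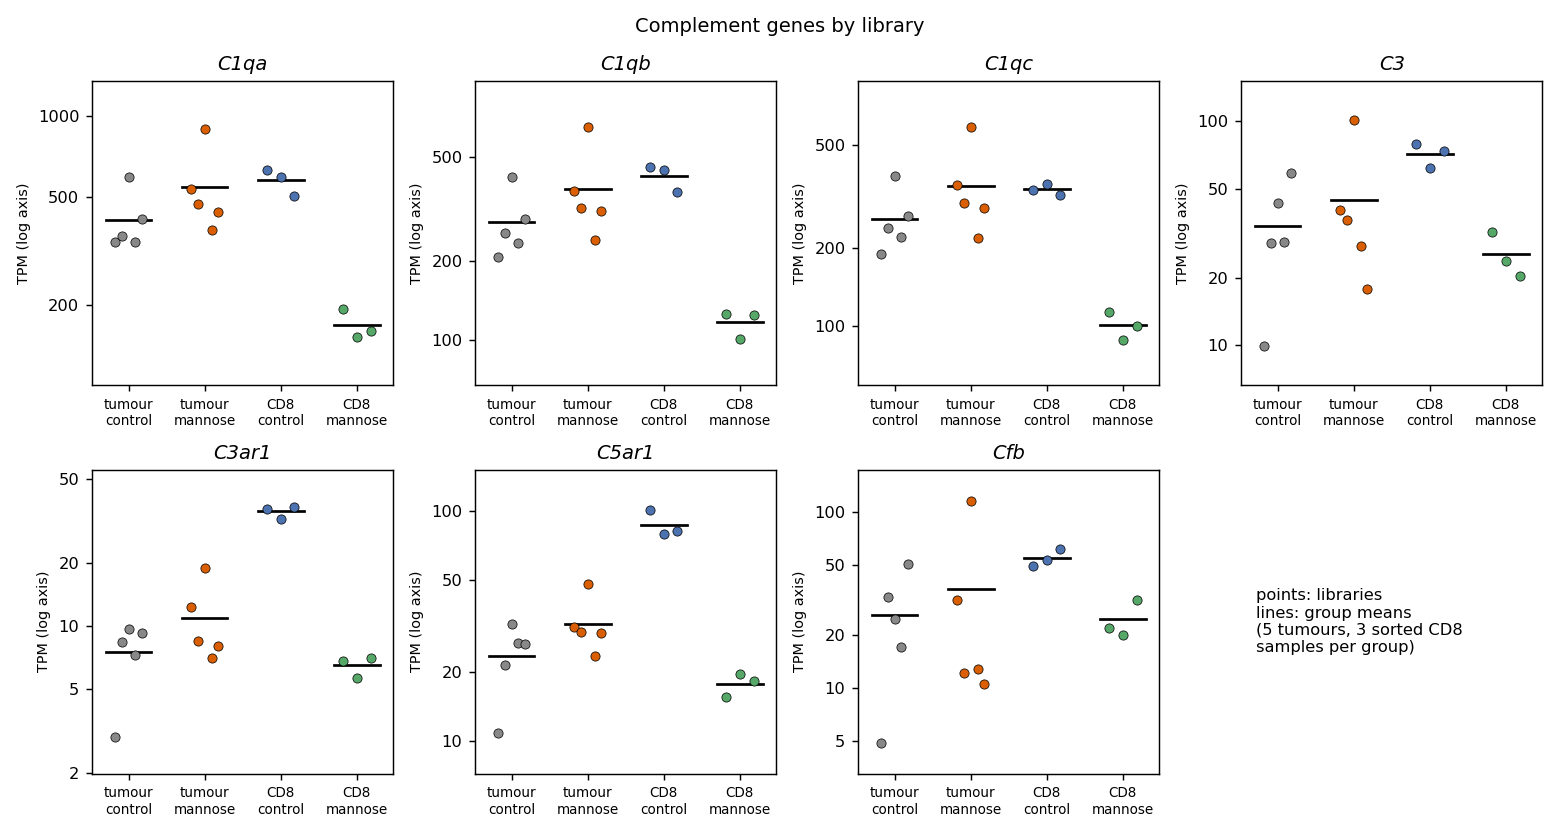
TPM (log axis) of the 7 complement genes in each library, with points for libraries and lines for group means (5 tumours or 3 sorted CD8 samples per group). In CD8 samples the control points lie above the mannose points for each gene, from a 2.23-fold difference of means for Cfb to 5.41-fold for C3ar1, while the tumour groups overlap.

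Ordered by group mean, CD8 control was highest for 6 of the genes, and for C1qc it came second after mannose tumours (337 against 349 TPM, with overlapping ranges). CD8 mannose was lowest for all 7. Ranges of neighbouring groups overlapped except between tumour control and CD8 mannose for the 3 C1q chains and between CD8 control and tumour mannose for the 2 receptors.

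Promoter sequences are shown for 3 of the genes, all lower in the mannose CD8 samples and chosen after matches to motifs of myeloid regulators had been seen in them. RefSeq promoters on GRCm38.p6 were matched for 5 of the 7 genes, and each sequence below is the 250 bases before the gene's start, 5′ to 3′ on the gene's strand. Capitals mark matches to the core motif of PU.1 and other ETS factors (GAGGAA or AGGAAG, either strand) or to a C/EBP-type motif (TTGCNNAA, either strand). The expression files were made on GRCm39, so these positions belong to the sequence table alone.
C1qb, chr4:136886201-136886450, minus strand: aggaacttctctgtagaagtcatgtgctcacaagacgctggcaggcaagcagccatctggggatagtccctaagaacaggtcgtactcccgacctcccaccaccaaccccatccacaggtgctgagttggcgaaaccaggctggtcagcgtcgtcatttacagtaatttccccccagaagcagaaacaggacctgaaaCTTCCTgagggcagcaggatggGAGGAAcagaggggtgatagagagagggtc
C5ar1, chr7:16259339-16259588, minus strand: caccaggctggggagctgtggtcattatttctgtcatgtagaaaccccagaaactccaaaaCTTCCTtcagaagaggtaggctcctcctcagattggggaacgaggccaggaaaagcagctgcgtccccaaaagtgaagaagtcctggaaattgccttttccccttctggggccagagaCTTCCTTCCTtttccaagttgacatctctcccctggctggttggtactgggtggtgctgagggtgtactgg
C3, chr17:57228137-57228386, minus strand: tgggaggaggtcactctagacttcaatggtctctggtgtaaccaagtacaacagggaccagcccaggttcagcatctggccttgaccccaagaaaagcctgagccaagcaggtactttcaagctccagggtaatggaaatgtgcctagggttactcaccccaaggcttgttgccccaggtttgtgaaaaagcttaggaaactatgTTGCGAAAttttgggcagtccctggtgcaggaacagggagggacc

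The C1qb window held 2 ETS matches, which begin 52 and 30 bases before the start. The C5ar1 window held 3 ETS matches, at 189, 71 and 67 bases before it, the last pair overlapping. C1qc also held 3, of which 2 overlap, and the windows of C3 and C3ar1 held none. An ETS core was present in 39.2% of 32851 windows of the same length, so a match is common. The C3 window held 1 C/EBP match, 45 bases before the start, as did 9.56% of all windows, and the other 4 windows held none. An interferon-stimulated response element (GAAANNGAAA), found in 2.98% of windows, was in none of the 5. These are letter matches and were not tested for function.

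Whole tumours were compared to ask how mannose changed complement transcripts in the tissue. All 7 genes had a higher mean with mannose, but none passed the test, and 74.4% of all 13282 genes tested had a positive mean difference. By limma on log2(TPM + 1), C1qa differed by 0.37 on the log2 scale (SE 0.23, 95% interval -0.12 to 0.87, adjusted p = 0.754), with means of 410 ± 106 and 544 ± 205 TPM (n = 5 each). C1qb and C1qc gave 0.39 and 0.38. The receptors gave 0.49 for C3ar1 (interval -0.19 to 1.17) and 0.49 for C5ar1 (interval -0.10 to 1.08), and C3 gave 0.35 with an interval from -0.72 to 1.41. Cfb gave 0.15 with an interval from -1.36 to 1.66 (adjusted p = 0.959). The share of all genes called was 0%, and 6.23% of genes had an unadjusted p under 0.05, against 0 of the 7 complement genes. The median difference was 0.38 for the 7 genes and 0.12 for all genes tested. After quantile normalization these medians were 0.36 and -0.0049, and after median-ratio scaling 0.24 and -0.010, with all 7 differences still above 0. Without mannose 3 the medians were 0.17 and 0.11, and without control 1 and mannose 3 they were 0.067 and 0.0096.

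All 7 differences were smaller without control 1 or mannose 3, and those of C3 and Cfb turned below 0. Without control 1, C3 and Cfb were at -0.021 and -0.32, without mannose 3 at -0.0043 and -0.42, and without both at -0.37 and -0.89, none of them called. Without control 1, C3ar1 was at 0.23 and C5ar1 at 0.24, below C1qa (0.32), C1qb (0.29) and C1qc (0.28). Without mannose 3 the C1q chains were at 0.18, 0.17 and 0.17 and the receptors at 0.28 and 0.34. Without both tumours C1qa was at 0.12, C1qb at 0.072, C1qc at 0.067, C3ar1 at 0.029 and C5ar1 at 0.097. Markers of several cell types moved with the complement transcripts in these same tumours. The summed level of the macrophage markers ran from 1696 to 3384 TPM in control and from 2242 to 5118 TPM in mannose tumours, lowest in control 1 and highest in mannose 3. Fibroblast markers (116.6 and 1897 TPM), T cell markers (5.55 and 79.3 TPM) and endothelial markers (28.1 and 87.2 TPM) were also lowest in control 1 and highest in mannose 3. With mannose the mean was higher for 11 of 12 macrophage, 7 of 7 fibroblast, 8 of 8 T cell and 3 of 5 tested endothelial markers, and none was called. Most genes went this way, with a positive mean difference for 74.4% of all genes tested. Neutrophil and carcinoma markers mostly went the other way, with 1 of 6 and 1 of 5 tested markers higher, and none was called. The summed level of the neutrophil markers was highest in control 1 (247.8 TPM). In bulk tissue, more cells of a type and more RNA per cell cannot be told apart, and the part of these cell types in the differences was not tested.

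Between single tumours, the 3 C1q chains varied together. Over the 10 tumours C1qb and C1qc correlated with Pearson's r = 0.999 and Spearman's rho = 0.988 (adjusted permutation p = 2.7e-05 and 8e-05, for 8 relations tested), and r = 0.996 without control 1 and mannose 3. C1qa correlated with C1qb at r = 0.992 and rho = 0.976 (adjusted permutation p = 2.7e-05 and 0.00012), with r = 0.967 without control 3 and mannose 3, and with C1qc at r = 0.987 and rho = 0.939 (adjusted permutation p = 2.7e-05 and 0.00061), with r = 0.953 without the same tumours. The smallest p that these permutations can give is 1e-05 before adjustment. C1qa correlated with Csf1r, the macrophage growth factor receptor, at r = 0.874 and rho = 0.891 (adjusted permutation p = 0.00094 and 0.002), with r = 0.821 without the same tumours.

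C3 and Cfb also varied together, at r = 0.921 and rho = 0.818 (adjusted permutation p = 0.00046 and 0.0061), with r = 0.745 without control 1 and mannose 3 (exact permutation p = 0.032, n = 8). C3 and Csf1r gave r = 0.901 and rho = 0.879 (adjusted permutation p = 0.00089 and 0.0022), with r = 0.711 without these 2 tumours (exact permutation p = 0.043). The receptors C3ar1 and C5ar1 gave r = 0.944 and rho = 0.818 (adjusted permutation p = 0.00089 and 0.0061), but r = 0.569 without the 2 tumours (exact permutation p = 0.14). C3 and C3ar1 gave r = 0.904 and rho = 0.891 (adjusted permutation p = 0.0018 and 0.002), but r = 0.554 without them (exact permutation p = 0.15). Both Pearson correlations of the receptors were thus weaker without the lowest and the highest tumour, and with 8 tumours left neither passed. With each group centred on its own mean, the 8 values of r ran from 0.859 to 0.998.

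**Figure D2:**
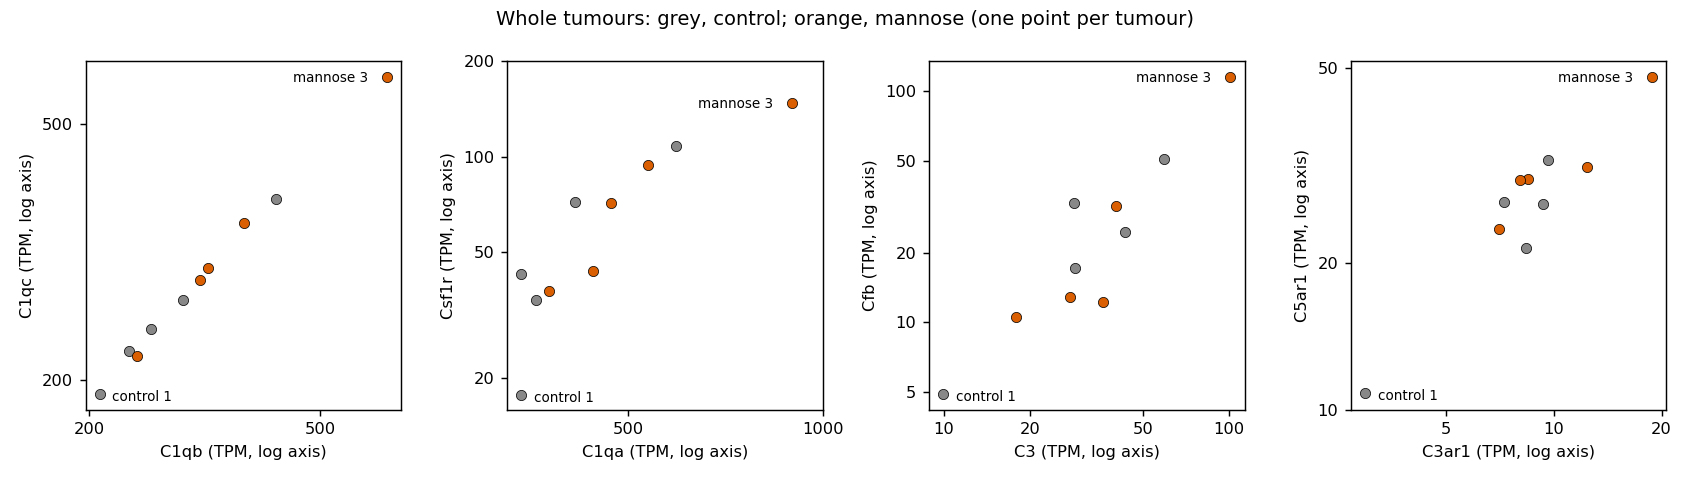
TPM of pairs of genes in the 10 whole tumours, all axes on a log scale, grey for control and orange for mannose. C1qb and C1qc lie on a line (r = 0.999), whereas the points of C3ar1 and C5ar1 other than control 1 and mannose 3 form a loose group (r = 0.569).

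Among 9504 other genes with a mean of at least 5 TPM in the tumours, those whose levels followed the C1q mean most closely were Fcgr1, a high-affinity antibody receptor (r = 0.980, rho = 0.988), Lpcat2 (r = 0.976), Spi1, the gene of PU.1 (r = 0.975), Vav1 (r = 0.973) and Crlf2 (r = 0.971). For C3 they were Irf8, a transcription factor of myeloid cells (r = 0.983), Tmem229b, Slc29a3, Clcn7 and Sdc3 (r from 0.974 to 0.981). For C3ar1 they were Slc7a8 (r = 0.991), Il21r, Csf2ra, Ptprc and Lcp1, and for C5ar1 they were Sla (r = 0.988), the macrophage marker Adgre1 (r = 0.988), Rassf5 and Actr3. Cfb was followed by Sp100 (r = 0.984), Parp14, Trafd1, Tor3a and H2-Q7, of which Sp100, Parp14 and Trafd1 are known as interferon-induced. These genes were picked as the closest of many over 10 tumours that share the same libraries, so no p is given. Without the 2 tumours farthest from the median of each profile, r stayed between 0.830 (Actr3 with C5ar1) and 0.965 (Sp100 with Cfb).

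The sorted CD8 samples were compared in the same way, although their transcripts were not those of T cells alone. Their macrophage markers summed to between 3580 and 3701 TPM in controls, above the control tumours (1696 to 3384 TPM). A change in these samples can therefore not be assigned to the T cells. All 7 complement transcripts fell, and each was lower in all 3 mannose samples than in all 3 controls. C3ar1 fell the most, from 35.2 ± 2.43 to 6.50 ± 0.743 TPM (n = 3 each), a log2 difference of -2.27 (SE 0.12, limma adjusted p = 2.03e-04). C5ar1 fell from 87.2 ± 11.8 to 17.7 ± 2.03 TPM, a log2 difference of -2.23 (SE 0.13, limma adjusted p = 2.29e-04). The C1q chains came next, with C1qb falling from 425 ± 48.5 to 117 ± 13.8 TPM, a log2 difference of -1.85 (SE 0.12, limma adjusted p = 2.85e-04). C1qa fell from 576 ± 63.4 to 168 ± 21.7 TPM (log2 -1.78) and C1qc from 337 ± 15.5 to 101 ± 12.5 TPM (log2 -1.74). C3 fell from 71.5 ± 8.88 to 25.4 ± 6.10 TPM (log2 -1.47, limma adjusted p = 0.00229) and Cfb from 54.5 ± 6.03 to 24.5 ± 6.16 TPM (log2 -1.14, limma adjusted p = 0.00426).

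The background in this comparison was high. Of 14280 genes tested, 11.7% were called lower and 23.2% higher, 3306 rises and 1674 falls, a split that became 2673 and 2305 after quantile normalization and 2577 and 2535 after median-ratio scaling. The mannose samples lay below all controls for 18.1% of genes, and 3.45% fell by at least as much as Cfb and were called. The median difference was -1.78 for the 7 complement genes and 0.09 for all genes tested. With the CD8 samples that shared V segments averaged, all 7 falls were still called, with limma adjusted p from 0.00989 to 0.0476. Fitted together with the tumours, C3 and Cfb lost their calls (limma adjusted p = 0.0627 and 0.318) and the other 5 did not.

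**Figure D3:**
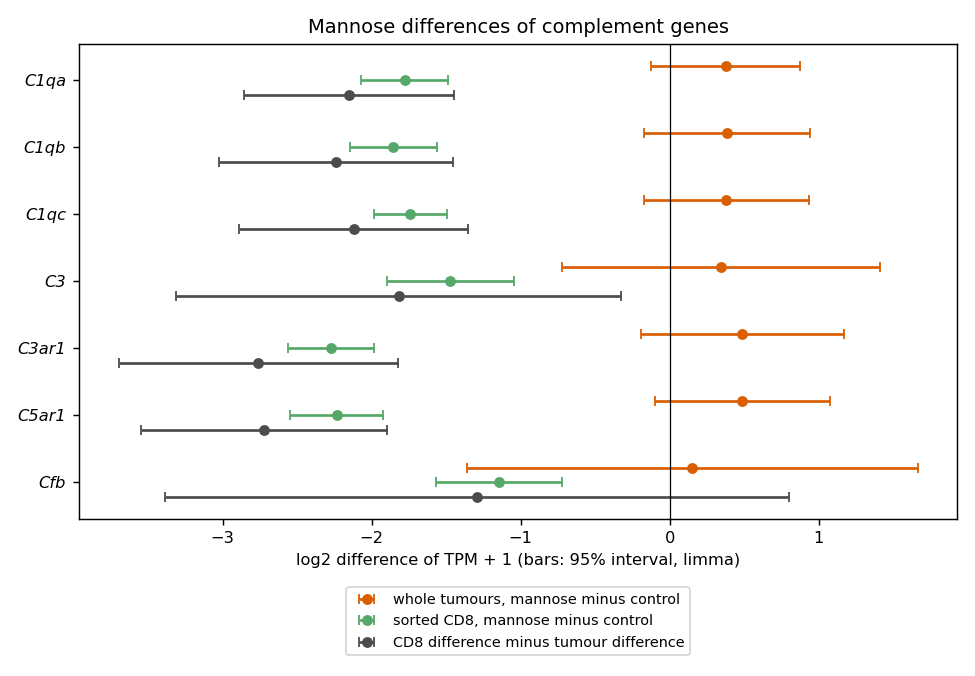
Log2 differences of TPM + 1 for the 7 complement genes in whole tumours, in sorted CD8 samples and for CD8 minus tumour, with 95% intervals from limma. The CD8 values run from -2.27 to -1.14 with intervals below 0, and the tumour values from 0.15 to 0.49 with intervals that include 0.

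Macrophage markers moved with these transcripts in the CD8 samples too. Over all genes tested, 11.7% were called lower and 23.2% higher. Of the 12 macrophage markers, 11 were called lower and none higher, with a median difference of -1.87, and Csf1r fell from 178 ± 15.3 to 46.7 ± 4.58 TPM (limma, n = 3). Adgre1, which encodes the F4/80 antigen, fell from 35.9 ± 5.64 to 9.09 ± 1.61 TPM. Neutrophil markers (5 of 6 tested called lower, summed level 305 to 662 TPM in control and 97.8 to 198 TPM in mannose samples) and dendritic cell markers (4 of 6 called lower) fell as well. All 8 T cell markers were lower with mannose, with a median difference of -0.65, and 2 were called. Cd3e measured 588 ± 30.2 and 393 ± 143 TPM without passing. Of 5 tested carcinoma markers 4 rose and 1 fell, and of 7 fibroblast markers 6 rose, among them Col1a1 from 34.5 ± 17.4 to 97.1 ± 9.76 TPM, a call lost in 5 of 14 alternatives. The part of these cell types in the fall of complement transcripts, or in the rise of others described below, was not tested.

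Set against Csf1r in the same library, the C1q chains overlapped between the CD8 groups and the other 4 genes did not. C1qa stood at 3.25, 3.37 and 3.09 times Csf1r in control and 4.01, 2.99 and 3.83 times in mannose CD8 samples. The receptors were lower relative to Csf1r. C3ar1 stood at 0.186, 0.185 and 0.226 in control and 0.143, 0.112 and 0.168 in mannose samples, and C5ar1 at 0.519, 0.450 and 0.499 in control and 0.323, 0.385 and 0.437 in mannose samples, with no overlap for either. Of the other 14279 genes tested, 0.420% were lower in this way. Csf1r itself fell more than nearly all genes (log2 -1.91), so this share rests on the choice of Csf1r. The integrin gene Itgam (log2 -2.36) and the macrophage markers Fcgr1 (-2.90), Mrc1 (-2.22), Cd14 (-2.07) and Cd68 (-1.93) also fell further than Csf1r. The other macrophage markers, such as Adgre1 (-1.87), fell less. C3 and Cfb were higher relative to Csf1r, C3 at 0.351 to 0.452 in control and 0.472 to 0.670 in mannose samples and Cfb at 0.255 to 0.374 and 0.394 to 0.757, again with no overlap. Such a rise was the rule, found for 92.1% of genes, and nothing is read from it. In tumours C1qa stood at 5.48 to 19.3 times Csf1r, above every CD8 sample. These ratios were described and not tested.

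**Figure D4:**
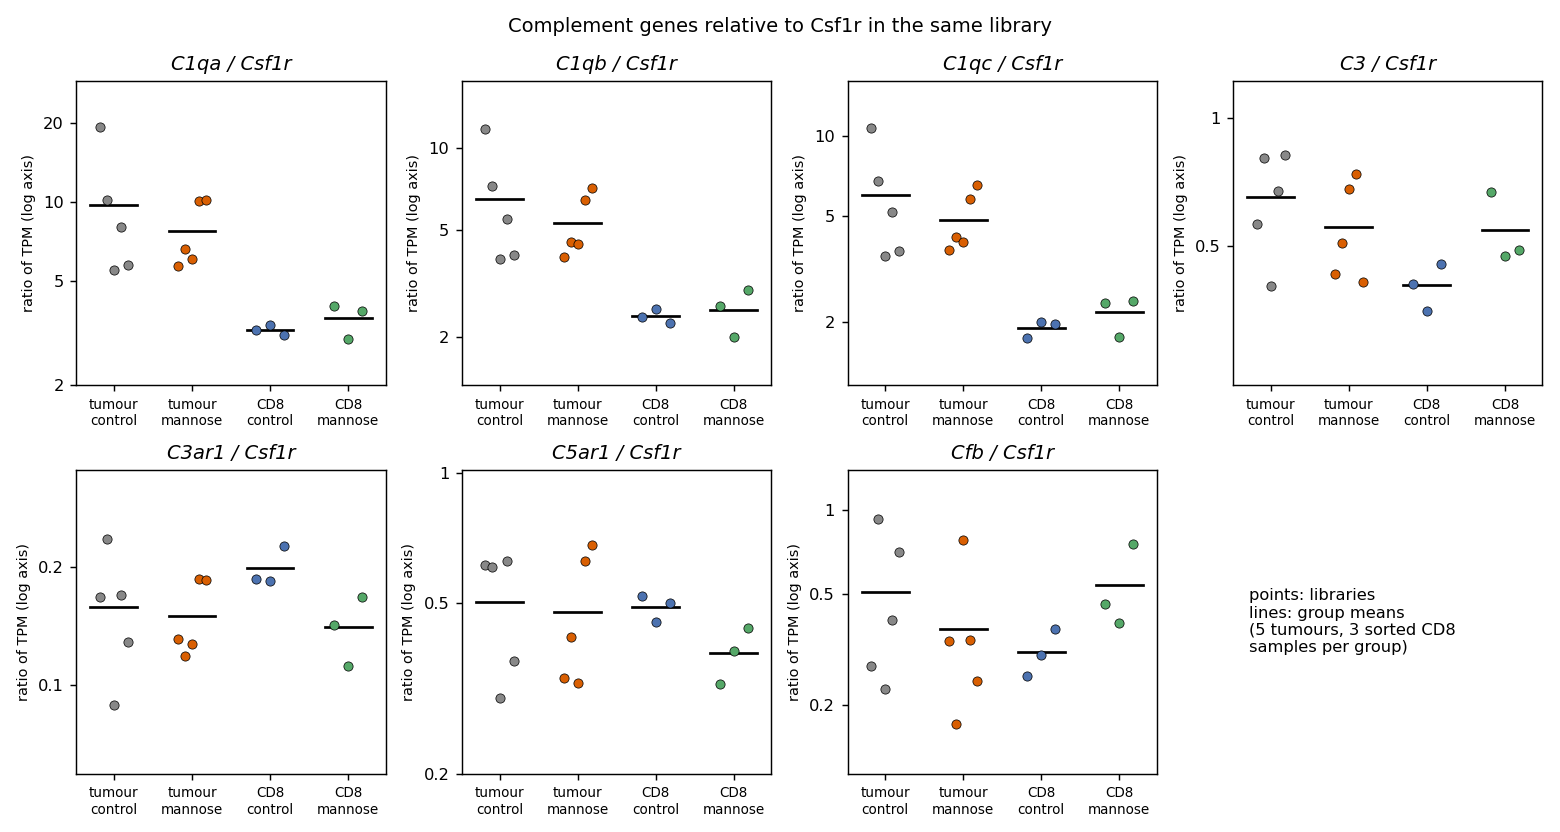
Ratio of each complement gene to Csf1r in the same library (log axis), points for libraries and lines for group means. In CD8 samples the mannose points lie below the control points for C3ar1 and C5ar1, above them for C3 and Cfb, and among them for the C1q chains.

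The mannose difference itself was compared between CD8 samples and tumours in a fit of all 16 libraries, as an interaction. It was lower in CD8 samples for C5ar1 by 2.72 on the log2 scale, a value of -2.72 (SE 0.39, limma adjusted p = 2.65e-04), and for C1qa at -2.15 (SE 0.33, limma adjusted p = 4.36e-04). C3ar1 at -2.76, C1qb at -2.24 and C1qc at -2.12 were called too, so 5 of the 7 genes were called lower, against 7.64% of all 15498 genes tested. C3 at -1.82 (interval -3.31 to -0.33, limma adjusted p = 0.0847) and Cfb at -1.29 (interval -3.39 to 0.80, limma adjusted p = 0.413) were not called. The C3 call depended on the setting: its limma adjusted p ran from 0.00607 to 0.191 over 22 alternatives, at 0.0358 after quantile normalization, 0.0408 after median-ratio scaling, 0.00607 with array weights, 0.0483 without tumour control 5 and 0.0459 without tumour mannose 5. Of the 12 macrophage markers, 10 were called lower in this fit.

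The rest of the complement system did not move as 1 group. Of 42 further complement genes, 20 were tested in CD8 samples. Of these, 7 were called higher and 6 lower, with a median difference of -0.04. Over all genes tested in CD8 samples, 23.2% were called higher and 11.7% lower. With the CD8 samples that shared V segments averaged, 2 of these rises (C1s1 and C2) and 3 of these falls (Cfp, Itgam and Itgax) were still called, and the other 8 kept their direction without passing. In tumours 21 were tested and none was called, 15 of them with a higher mean, a direction shared by 74.4% of all genes tested there. Most of the others stayed under 1 TPM, among them the terminal genes C7, C8a, C8b and C9, the liver lectins Mbl1 and Mbl2 and Cr2, a complement receptor of B cells.

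In the classical pathway, the proteases went against C1q in CD8 samples, where most carcinoma and fibroblast markers rose too. C1s1, which encodes the protease that cuts C4 and C2, rose from 10.9 ± 5.01 to 42.3 ± 7.98 TPM (log2 1.95, limma adjusted p = 0.00675, n = 3). C1ra, the protease that activates it, rose from 11.9 ± 2.57 to 21.0 ± 1.41 TPM, and C1s2 from 0.750 ± 0.580 to 3.44 ± 0.200 TPM. C2 rose from 3.31 ± 0.348 to 10.9 ± 0.730 TPM (log2 1.47, limma adjusted p = 9.08e-04), while its homologue Cfb, which lies close by on chromosome 17, fell. C2 stood at 0.0549 to 0.0721 of Cfb in CD8 controls and at 0.323 to 0.548 in mannose CD8 samples, a ratio chosen after its values were seen, against 0.183 to 0.690 in the tumours. C4b, which shares most of its sequence with C4a, did not pass (limma adjusted p = 0.0541). C1ra and C1rb, and C1s1 and C1s2, are also near copies between which reads can be split, so their separate values are uncertain.

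Genes of the other activation routes fell or rose one by one. Cfp, the gene of properdin, which stabilises the alternative convertase and is made by myeloid cells, fell from 133 ± 8.49 to 34.9 ± 4.89 TPM (log2 -1.91, limma adjusted p = 2.41e-04). In the lectin pathway, the ficolin gene Fcna fell from 43.5 ± 1.98 to 24.4 ± 6.41 TPM, whereas the protease gene Masp1 rose from 1.21 ± 0.760 to 5.66 ± 1.12 TPM. C6, the one terminal gene tested, fell from 6.96 ± 1.83 to 3.46 ± 1.15 TPM (limma adjusted p = 0.0434), a call lost in 8 of 14 alternatives (highest limma adjusted p = 0.257).

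Inhibitors and further receptors divided in the same comparison. Clu, which encodes the terminal inhibitor clusterin, rose from 16.7 ± 6.64 to 90.2 ± 37.5 TPM (log2 2.35, limma adjusted p = 0.00629), and Serping1, the gene of the C1 inhibitor, from 24.3 ± 8.56 to 70.5 ± 22.1 TPM. The membrane inhibitor Cr1l (94.0 ± 8.93 and 73.6 ± 15.3 TPM) did not pass, nor did Cd55 and Cd59a. The integrins that bind cleaved C3 fell, Itgam from 193 ± 9.65 to 36.9 ± 3.01 TPM (log2 -2.36, limma adjusted p = 1.34e-04), Itgax from 74.0 ± 6.54 to 17.7 ± 1.71 TPM and their shared chain Itgb2 from 573 ± 12.5 to 275 ± 124 TPM. The Itgb2 call was lost in 8 of 14 alternatives (highest limma adjusted p = 0.124), and that of Serping1 in 4. C5ar2, the other C5a receptor, did not pass (log2 -0.39, limma adjusted p = 0.146).

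**Figure D5:**
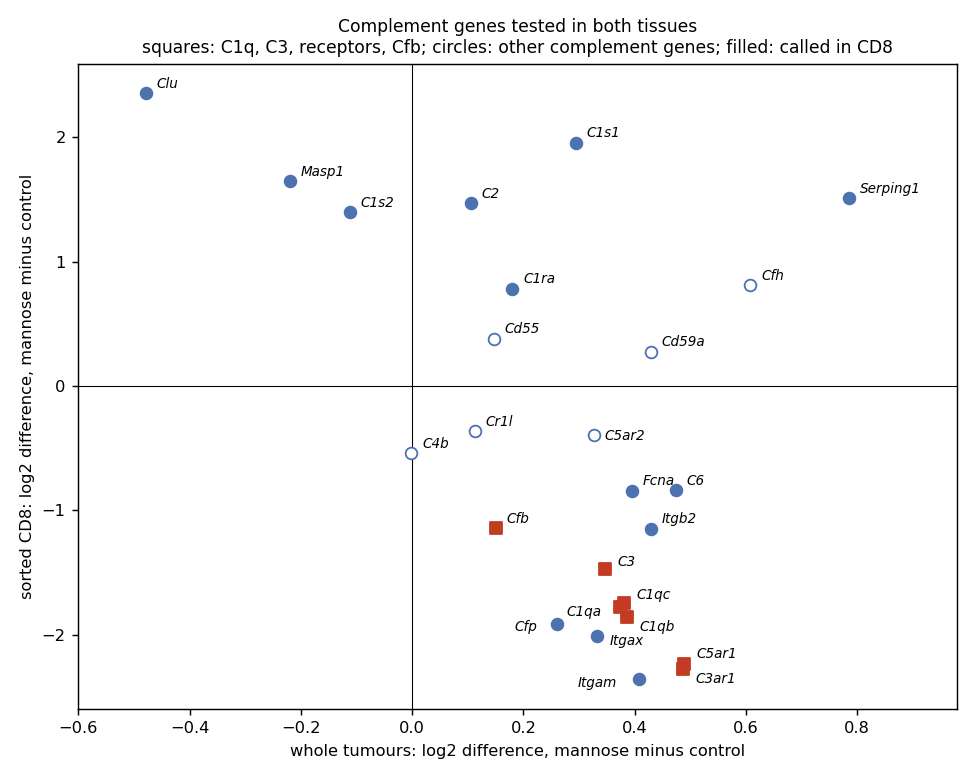
Log2 mannose differences of the complement genes tested in both tissues, whole tumours on the x axis and sorted CD8 samples on the y axis, filled where called in CD8. Squares mark C1q, C3, Cfb and the receptors, all at or below -1.14 in CD8, while C1s1, C2, Masp1, Clu and Serping1 lie above 1.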

How the data were processed

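RNA was measured in 10 whole tumours and 6 sorted CD8 samples, grouped by their labels. The tools fastp, HISAT and RSEM and the build GRCm39 are listed per the submitters' processing notes; versions and annotation are not given in the sources used here. The authors deposited TPM, 1 table per library (totals of 993815 to 997809), so depth is unknown and no counting interval can be given. Entries sharing a symbol were summed. Differences were tested with limma 3.58.1 (R 4.3.3) with a variance trend on log2(TPM + 1), a scale that understates changes of low genes. A gene was kept at 1 TPM or more in at least 5 tumours, 3 CD8 samples or, for the interaction over 52916 shared symbols, 3 libraries. Benjamini-Hochberg adjustment covered all genes tested (threshold 0.05). The fits were tested on simulated data. Correlations of log2 values had 100000 permutations, 2-sided, or all orders over 8 tumours. The 7 genes and all lists were chosen with earlier results of these data known. Named genes are the 7, up to 4 called genes per complement class, class members with a group mean of at least 50 TPM, 6 markers, and the 5 genes closest to each profile, leaving out predicted genes and receptor segments; 1 gene that this rule names is not reported here. Alternatives covered the pseudocount, filter, scaling, weights, a joint fit, the replicate number, averaged pairs and each library left out. Figures were drawn with matplotlib 3.10.9. Promoters came from RefSeq on GRCm38.p6.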

Additional observations from a re-analysis of the deposited data

Results flagged for a closer look

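Of 54 groups of 5 tumours checked for a sample far from the others, 10 held one. Chance flags about 1 in 20 where values follow a normal distribution. The checks used TPM without a log and shared the same 10 tumours, so their count cannot be set against that rate. Mannose 3 stood above the other mannose tumours for C3 (100.8 TPM), Cfb (115 TPM), C1ra (39.3 TPM), C1s1 (44.8 TPM), C1s2 (2.06 TPM), C2 (21.2 TPM), Adgre1 (33.3 TPM) and Col1a1 (757 TPM). Control 3 stood above the other controls for Clu (141 TPM), and control 1 below them for Itgam (8.75 TPM).

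The mannose difference itself differed between CD8 samples and tumours, by limma's interaction test, for 16 of the genes named. It was lower in CD8 samples for C1qa (-2.15), C1qb (-2.24), C1qc (-2.12), C3ar1 (-2.76) and C5ar1 (-2.72), for the complement genes Cfp (-2.17), Fcna (-1.24), Itgam (-2.77) and Itgax (-2.34), and for the macrophage markers Csf1r (-2.49) and Adgre1 (-2.50), all on the log2 scale. It was higher in CD8 samples for C1s1 (1.66), C1s2 (1.51), Masp1 (1.86), Clu (2.83) and Krt8 (2.67). The C1s1 call (limma adjusted p = 0.0376) was lost in 13 of 22 alternatives, with an adjusted p of up to 0.124. With the CD8 samples that shared V segments averaged, Itgax (limma adjusted p = 0.0685) and Csf1r (0.0733) lost their calls too, and none of these 3 turned its direction.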

How the results depend on the processing

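In the CD8 samples all 7 genes stayed lower under 14 alternatives, and 7 were called in each except the fit of all 16 libraries, which called 5. The interaction called 5 or 6 under 22 alternatives, the sixth always C3. The tumours gave 0 under 18. Only C3 and Cfb turned their sign there, never called: C3 to -0.021 without control 1, -0.0043 without mannose 3 and -0.37 without both, and Cfb to -0.32, -0.42 and -0.89 in these cases and -0.16 with array weights. Leaving out single libraries, C3 ran from -0.021 to 0.60 and Cfb from -0.42 to 0.46. Same-numbered samples correlated at -0.511 to 0.28 in tumours and 0.0565 to 0.163 in CD8 samples, so the replicate numbers were not taken as pairs, and CD8 sample 2 was most like number 1. With the replicate block the CD8 count was 7 and the tumour count 0, and 3152 rises and 1686 falls were called over all genes in CD8.

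Calls over all genes varied more. In CD8, against 3306 rises and 1674 falls, there were 5114 and 3517 with array weights, 2040 and 1028 without mannose 1, 1909 and 894 without mannose 2 and 1091 and 561 with averaged pairs. The interaction called 2896 genes, and 6323 with array weights, 1884 without CD8 mannose 1 and 1609 with averaged pairs. Of the 42 further complement genes, 2 to 9 were called higher and 3 to 10 lower in CD8 over the 14 alternatives, counted after seeing the data. The fewest rises came with averaged pairs and the most falls with array weights. TPM carry no depth, so precision rests on the 5 or 3 libraries per group.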
